A study of Mus musculus with 46 samples.

Results

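The genes described here are 43 genes of the lysosome: acid hydrolases and their helper proteins, proteins of the lysosomal membrane, subunits of the proton pump that acidifies the organelle, and the transcription factors TFEB, TFE3 and MITF. They were listed by symbol, as known genes of the lysosome, with no limit on a measured value, at a time when earlier results of these data were known. The SVZ tissue table lists 41 of them and all 41 passed the filter for testing (3 or more samples at an FPKM of 1 or above), the table of cells sorted after LPS lists 42 and all 42 passed, and the GLOBAL repopulation table lists all 43, of which 42 passed, out of 21231 genes listed in at least 1 of the 3 tables. Acp5 in the SVZ table and Atp6v0d2 in the SVZ and LPS tables are not analysed here.

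All 46 libraries came from C57BL/6 mice, male by the study's methods. The RNA values are fragments per kilobase of gene and per mega (M) of mapped reads (FPKM). PLX3397, an inhibitor of CSF1R, the receptor that microglia need to survive, was given in chow. The SVZ libraries (subventricular zone, microdissected tissue) came from mice on control chow (n = 5), from mice at the end of 14 days on PLX3397 (n = 5), and from mice that had 5 further days of recovery without the drug (n = 5). The LPS experiment holds CD11b+CD45int cells sorted from brain hemispheres of mice given as 2 months old. They were either control microglia or WM repopulating cells, which had refilled the brain over 28 days after 14 days of PLX3397. Lipopolysaccharide (LPS, 0.33 mg/kg) was injected 6 or 24 hr before collection, and the 0 hr mice received none. Control microglia number 3, 5 and 4 libraries at 0, 6 and 24 hr and WM repopulating cells 4 at each time. GLOBAL repopulation (n = 3) was collected at 28 days of recovery after 7 days of PLX3397, beside its own control (n = 4). No allele or transgene is named for any group.

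Lysosomes are acidic compartments in which enzymes take apart glycans, lipids, proteins and nucleic acids brought in by phagocytosis, endocytosis and autophagy. A proton pump of many subunits, the V-ATPase, keeps them acidic, and heavily glycosylated membrane proteins such as LAMP1 and LAMP2 line them. TFEB, TFE3 and MITF bind a short palindromic sequence in the promoters of many lysosomal genes. Microglia are the phagocytes of the brain, and loss of single hydrolases causes storage disease.

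A search of the members' promoters (250 bases before to 50 after the start site, RefSeq, GRCm38.p6) for the core of that binding sequence, TCACGTG on either strand, was made because the regulators are members themselves. Of 37 members with a promoter in the table, 11 hold it (29.7%), against 4.29% of the promoters of 27025 genes, and the same 11 hold the shorter CACGTG (8.09% of all genes). The full palindrome, which contains both, lies in 5 of 37 (13.5%), against 1.12% of all genes. The members were listed as known genes of the lysosome, and this sequence is already described in promoters of such genes. The excess over all genes is therefore a description and no test. The windows below, from 8 of the 11, show how the number and spacing of the motif differ between members, read 5′ to 3′ on the strand of the gene, with the motif in capitals. All lie within the searched stretch before the start site of their gene, except that the window of Atp6v0d1 runs 12 bases past it.
Lamp1 (chr8:13159087-13159160, plus strand): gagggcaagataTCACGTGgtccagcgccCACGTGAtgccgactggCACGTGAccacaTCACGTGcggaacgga
Mcoln1 (chr8:3500435-3500492, plus strand): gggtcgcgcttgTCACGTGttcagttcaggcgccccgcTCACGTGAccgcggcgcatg
Cln3 (chr7:126583339-126583397, minus strand): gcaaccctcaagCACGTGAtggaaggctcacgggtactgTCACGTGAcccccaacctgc
Sgsh (chr11:119355521-119355551, minus strand): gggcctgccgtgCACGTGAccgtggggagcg
Naglu (chr11:101070008-101070038, plus strand): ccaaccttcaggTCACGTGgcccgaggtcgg
Glb1 (chr9:114401017-114401047, plus strand): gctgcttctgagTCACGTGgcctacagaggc
Gla (chrX:134601181-134601245, minus strand): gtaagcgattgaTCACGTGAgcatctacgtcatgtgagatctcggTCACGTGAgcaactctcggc
Atp6v0d1 (chr8:105566053-105566082, minus strand): aggccctactgcggTCACGTGAgacgcggt

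Lamp1 holds 4 copies between 16 bases before its start site and the far end of a window of 74 bases, whereas Sgsh holds 1, at 29 bases before its start site, and Naglu 1, at 74. Arsa, Atp6v1a and Gaa hold it too. A match of letters is a description of the sequence and no measurement of binding.

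The members were expressed at very different levels in tissue and in sorted cells. In SVZ control tissue, V-ATPase subunits made up 36.0% of the members' summed FPKM and membrane proteins 18.6%, and the leading gene was Gaa, which breaks down glycogen (298 ± 62.2 FPKM, SD, n = 5). In control microglia at 0 hr, V-ATPase subunits made up 4.43% and membrane proteins 55.8%, led by Laptm5, a lysosomal membrane protein of haematopoietic cells (2459 ± 187 FPKM, n = 3), and by Cd68, a glycoprotein of phagocyte lysosomes (1461 ± 113). The GLOBAL control cells were also led by Laptm5 (2754 ± 618 FPKM, n = 4), followed by Grn, which encodes progranulin (1408 ± 113). The tables were normalised separately, so a level set beside one from another table compares ranks rather than amounts.

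The reads behind the values, recovered from the smallest steps of the FPKM columns, were 8.10 to 18.1 M a library in the SVZ table, 4.41 to 9.76 M in the LPS table and 3.09 to 4.95 M in the GLOBAL table. These are sums over genes with whole-read steps, which hold 90.0%, 86.5% and 87.6% of the FPKM in the same order. They therefore fall short of the full depths. The labels name the replicates as separate samples without saying more of their source, so p-values measure the spread between these samples. Some libraries stood apart, and their values touch several members. SVZ control replicate 1 had a summed choroid plexus marker level of 21238 FPKM, whereas the lowest SVZ control had 22.6 and the highest library of the other SVZ groups 42.4. It was the highest SVZ control library for Lamp2 (44.8 FPKM against 18.8 to 23 in the others), Psap, Fuca1, Tpp1, Laptm4a and Mitf. In the LPS table, control microglia 6 hr replicate 2 and 24 hr replicate 4 had the lowest mean correlations with their own groups (0.938 and 0.947, against 0.955 or more in the others), and the latter was low for many members. Without the former, Grn, Tfe3 and Galc, which are given below as not passing in control microglia at 6 hr, passed there (-0.52, -0.55 and +0.64, limma adjusted p = 0.017, 0.028 and 0.013). In the same table, summed neutrophil markers ranged from 429 to 15122 FPKM between libraries.

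PLX3397 lowered a small set of the members in SVZ tissue. After 14 days, 5 of 41 members fell, none rose and 36 did not pass the test, where 1.26% of all 14151 tested genes passed (limma, Benjamini-Hochberg adjusted p under 0.05), 1.21% as lower and 0.0565% as higher. The median of the members was -0.03 on the log2 scale. Those 5 were Laptm5, Cd68, Man2b1, Grn and Hexa, and in each of them the groups did not overlap, as for 2.77% of all genes (1.92% as lower).

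Laptm5 was 25.7, 35.6, 35.1, 31.2 and 36.1 FPKM in control SVZ, 0.418, 0.236, 0.0810, 0.436 and 0.378 after 14 days of PLX3397, and 3.10, 2.13, 1.67, 2.67 and 2.17 after 5 days of recovery. The 3 groups were fully separated, with 14 day PLX3397 lowest and recovery between it and control. The level after 14 days was 0.946% of control (log2 difference -4.68 ± 0.13, SE, limma adjusted p = 2.6e-13), on 2 to 10 reads a library against 572 to 1646 in control. After recovery it was 7.17% of control (-3.34 ± 0.13, adjusted p = 2.5e-11), and it had risen from the 14 day level by 1.35 ± 0.13 on the log2 scale (adjusted p = 2.5e-05). Laptm5 was the member that rose between PLX3397 and recovery, 1 of 41, where 0.325% of all genes passed and 0.29% rose. Folds here are on log2(FPKM + 1), which understates changes of low genes.

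Cd68 fell less. It measured 18.2, 21.7, 25.6, 17.6 and 22.4 FPKM in control, 9.93, 12, 12.1, 7.89 and 10.4 after 14 days, and 11.8, 8.43, 10.1, 14.8 and 15.3 after recovery. Every treated library lay below every control library, and the treated groups overlapped each other. The levels were 49.6% of control at 14 days (-0.95 ± 0.15, limma adjusted p = 0.0016) and 57.3% at recovery (-0.77 ± 0.15, adjusted p = 0.013).

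Among the hydrolases, Man2b1, the lysosomal alpha-mannosidase, moved furthest. Its FPKM was 23.2, 17.2, 15.2, 13.8 and 16.7 in control, 10.9, 12.3, 11.9, 11.8 and 12.1 after 14 days, and 10.7, 9.77, 9.39, 9.39 and 9.55 after recovery. All recovery libraries were below all 14 day libraries, although that step did not pass the test (-0.25 ± 0.10, limma adjusted p = 0.26). Against control the level was 68.5% at 14 days (-0.49 ± 0.10, adjusted p = 0.022) and 56.7% at recovery (-0.74 ± 0.10, adjusted p = 4e-04).

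Grn was 41.7, 41.7, 40.1, 49.2 and 45.9 FPKM in control, 31.7, 32.1, 30.9, 33.0 and 33.7 after 14 days, and 29.5, 34.0, 31.4, 23 and 35.6 after recovery. Control libraries were the highest without overlap, at both times. The differences were -0.42 ± 0.10 (limma adjusted p = 0.046) and -0.51 ± 0.10 (adjusted p = 0.011). Hexa, the alpha subunit of beta-hexosaminidase, which degrades GM2 ganglioside, was 60.7, 50.5, 59.6, 64.5 and 65.0 FPKM in control, 45.4, 46.3, 47.6, 42.2 and 47.7 after 14 days, and 52.8, 57.9, 52.7, 45.8 and 61.0 after recovery. It was below control at 14 days (-0.38 ± 0.09, adjusted p = 0.037) and overlapped control at recovery (-0.15 ± 0.09, adjusted p = 0.38). The 14 day calls of Grn and Hexa depend on the full set of libraries: of 10 fits leaving out 1 library each, Grn passed in 0 and Hexa in 1, and without SVZ control replicate 1, which carries the choroid plexus markers, their adjusted p was 0.074 and 0.090. Man2b1 at 14 days passed in 5 of 10, with an adjusted p of up to 0.080 (without 14 day PLX3397 replicate 1), and passed without SVZ control replicate 1, its highest control library (adjusted p = 0.020). Laptm5 and Cd68 passed in all 10 at 14 days. At recovery Laptm5, Man2b1 and Grn passed in all 10 and Cd68 in 9, the exception being without SVZ control replicate 3 (adjusted p = 0.051). With only the groups compared in the fit, Man2b1 at 14 days (adjusted p = 0.071) and Grn at recovery (adjusted p = 0.078) did not pass. With the replicate number as a block, Grn and Hexa at 14 days did not pass.

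**Figure D1:**
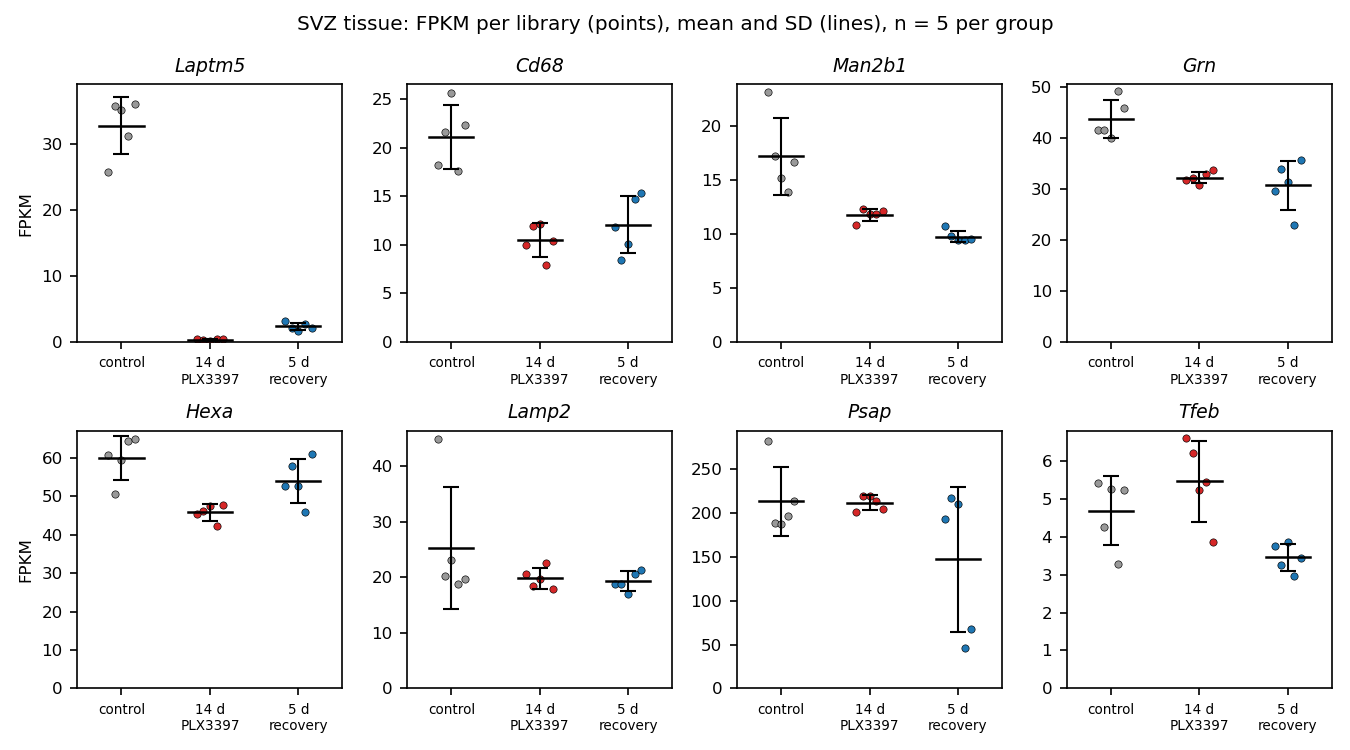
FPKM of 8 members in each SVZ library (points), in 3 groups of 5 libraries, with lines for the mean and SD. Laptm5 falls from 25.7 to 36.1 FPKM in control to at most 0.436 after PLX3397. Tfeb keeps 3 overlapping groups, with those of PLX3397 and recovery meeting only at their ends. Lamp2 and Psap each show a single high control library, and Psap is also low in some recovery libraries.

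The other members did not pass the test in the tissue at 14 days. Lamp1 was 216, 195, 211, 247 and 222 FPKM in control, 205, 223, 203, 260 and 205 after 14 days, and 208, 217, 178, 202 and 248 after recovery, with a 95% interval of -0.20 to 0.21 for the 14 day difference and -0.26 to 0.15 for recovery on the log2 scale. The groups overlapped throughout. Tfeb, the master regulator of lysosomal genes, was 5.42, 4.25, 5.25, 3.30 and 5.24 FPKM in control, 6.61, 6.20, 5.22, 5.44 and 3.85 after 14 days, and 3.75, 3.26, 3.86, 2.96 and 3.45 after recovery. Its recovery libraries were low, but 1 control library was as low as they were and the difference did not pass (-0.34 ± 0.13, limma adjusted p = 0.23). The recovery and 14 day libraries met only at 3.86 and 3.85 FPKM. Without 14 day PLX3397 replicate 5 that step passed (-0.62, limma adjusted p = 0.048).

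At recovery, 4 of 41 members were lower, none higher and 37 not called, beside 1.27% of all genes (1.09% as lower), and in 4, all lower, the groups did not overlap, beside 3.1% of all genes (1.97% as lower). Both treated groups were set against the same control libraries. SVZ recovery replicates 4 and 5 were low for several members: Psap, which yields the saposins that help sphingolipid hydrolases, was 194, 217 and 211 FPKM in the first 3 recovery libraries and 45.8 and 68.3 in these (-0.78 ± 0.34 against control, limma adjusted p = 0.27). Tfe3 was 12.7, 12.2, 11.8, 6.79 and 9.29 FPKM at recovery against 12.4 to 14.8 in control (-0.37 ± 0.13, adjusted p = 0.19). Mitf was at 1.18 to 2.39 FPKM at recovery and at 1.83 to 6.67 in control, the last in replicate 1. The V-ATPase subunits Atp6v1b2 (+0.33 ± 0.10, adjusted p = 0.14) and Atp6v0d1 (+0.39 ± 0.16, adjusted p = 0.24) did not pass, and without SVZ recovery replicate 3 Atp6v1b2 passed at an adjusted p of 0.039.

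The microglia marker list, 8 genes, fell with these members: its summed level was 184 to 250 FPKM in control, 13.2 to 16.9 after 14 days and 20.5 to 27.6 after recovery, with 7 of 8 markers called lower at both times and none at 0 in every library. From PLX3397 to recovery, 4 of 8 microglia markers (Csf1r, Tmem119, Cx3cr1 and Fcrls) and 2 of 4 erythrocyte markers were called higher. At that step 1 of 6 oligodendrocyte markers, Cldn11, was called lower. In bulk tissue, fewer cells of a type and less RNA per cell cannot be told apart. Erythrocyte markers summed to 32.4 to 79.3 FPKM in control and 91.3 to 336 at recovery, with 3 of 4 called higher. Astrocyte markers summed to 1132 to 1580 FPKM in control, 1478 to 1643 after 14 days and 1607 to 2543 at recovery, and 1 of 6, Gfap, was called higher at both times (+1.11 ± 0.18 and +1.39 ± 0.18, limma adjusted p = 0.0013 and 1.3e-04). Border-associated macrophage markers summed to 3.48 to 7.39 FPKM in control, 1.18 to 2.45 after 14 days and 1.22 to 2.97 at recovery, and 1 of 3 tested, Cbr2, was called lower at 14 days (-0.95 ± 0.22, adjusted p = 0.035). The part of these lists in the members' values was not tested. Members whose level in sorted control microglia was high relative to control SVZ tissue were those that fell: the ratio of the levels was 75.1 for Laptm5, 69.2 for Cd68, 17 for Grn, 15.1 for Man2b1 and 9.75 for Hexa, which rank among the 6 highest ratios of 41 members. Gusb, beta-glucuronidase, had the third highest ratio, 17.7, and was not called (-0.22 ± 0.11, limma adjusted p = 0.85). Over the 41 members the ratio and the 14 day log2 difference had a Spearman correlation of -0.643, and at recovery -0.439. This is a description only, since the points share their libraries and the control SVZ level enters both axes. The tables were normalised separately, so the ratios order the members and do not measure amounts.

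**Figure D2:**
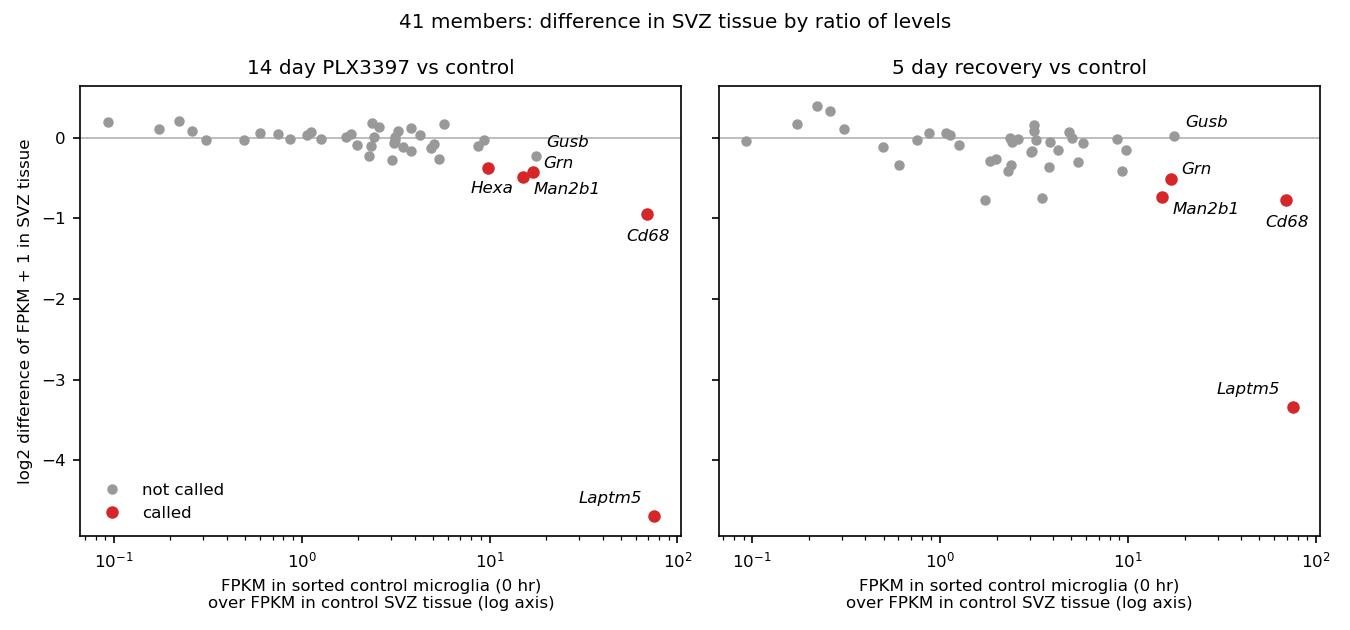
Each point is a member, with the ratio of its mean FPKM in sorted control microglia at 0 hr to that in control SVZ on a log axis and its log2 difference from SVZ control on the vertical axis, at 14 days and at recovery. Laptm5 and Cd68 stand at the right with ratios of 75.1 and 69.2. They hold the lowest values at 14 days, while at recovery Psap, with a ratio of 1.73, lies as low as Cd68 (-0.78 and -0.77).

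In sorted cells without LPS, no member was called between WM repopulating cells and control microglia. The count was 0 of 42 (limma, with 5 at an unadjusted p under 0.05), beside 1.21% of all 12684 genes, and the same held with the added limit of a log2 difference past 1 (0.473% of all genes higher and 0.307% lower). The median of the members was +0.18 on the log2 scale against 0.01 over all genes, and 32 of 42 were higher in WM repopulating cells. In 10 members the groups did not overlap, all 10 with WM repopulating cells above, beside 13.6% of all genes not overlapping and 7.61% above. These were Gusb, Tfe3, Hexa, Grn, Acp2, Arsb, Man2b1, Naglu, Neu1 and Glb1. Markers of other cells also differed between these groups: lymphocyte markers summed to 32.0 to 61.0 FPKM in WM repopulating cells and 8.13 to 28.7 in control microglia (5 of 5 tested higher, 1 called), and endothelial markers to 2.28 to 5.19 and 8.24 to 12.9 (1 of 2 tested called lower). Choroid plexus markers summed to 280 to 716 and 73.6 to 218 FPKM (4 of 4 higher, none called, 2 at an unadjusted p under 0.05, limma), and border-associated macrophage markers to 22.1 to 46.7 and 39.0 to 136 (5 of 5 tested lower, none called, 4 at an unadjusted p under 0.05). Astrocyte markers summed to 38.0 to 52.5 and 55.4 to 61.5 FPKM, and oligodendrocyte markers to 28.4 to 31.3 and 31.7 to 39.5. Of those tested, 4 of 5 and 2 of 3 were lower and 1 higher in each list, with none called. At an unadjusted p under 0.05 (limma) were 2 and 1 of them. The part of these lists in the members' values was not tested.

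Glb1, the lysosomal beta-galactosidase, was 50.2, 44.7, 42.9 and 50.8 FPKM in WM repopulating cells and 27.2, 34.3 and 35.7 in control microglia (+0.53 ± 0.18, limma adjusted p = 0.18). Man2b1 was 344, 363, 365 and 354 against 234, 273 and 275 (+0.45 ± 0.17, adjusted p = 0.24). Neu1, a sialidase, was 37.0, 31.4, 27.9 and 31.3 against 18.2, 22.1 and 27.8 (+0.49 ± 0.17, adjusted p = 0.19). The WM repopulating libraries of all 3 genes were the higher ones, by a narrow gap for Neu1. Acp5, the tartrate-resistant acid phosphatase, had the largest difference (+1.81 ± 0.49, adjusted p = 0.077), with 3.61, 17.2, 3.58 and 2.30 FPKM in WM repopulating cells and 2.58, 0 and 0.386 in control microglia. WM repopulating replicate 2 set much of that mean, the groups overlapped, and the control values rest on 0 to 28 reads. Acp5 passed with a pseudocount of 0.1 (adjusted p = 0.031) and without control replicate 1 (adjusted p = 0.040).

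At 6 hr after LPS, Arsb passed the test between the cell origins and the other 41 members did not, beside 0.323% of all genes (0.213% as higher). Arsb encodes arylsulfatase B, which removes sulfate from dermatan and chondroitin sulfate. It was 18.4, 24.1, 21.3 and 17.4 FPKM in WM repopulating cells and 13.2, 13.5, 11.3, 12.8 and 14.2 in control microglia, without overlap (156% of control, +0.60 ± 0.11, limma adjusted p = 0.011). Without WM repopulating 6 hr replicate 2, or with only these groups in the fit, it did not pass. Cd68, Man2b1 and Glb1 also did not overlap, with WM repopulating cells above, where 3.78% of all genes did not overlap and 2.11% were above. Cd68 was 909, 940, 914 and 735 FPKM against 629, 591, 717, 633 and 712 (+0.41 ± 0.11, adjusted p = 0.14).

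By 24 hr none of the 42 members passed between the cell origins (limma, 9 at an unadjusted p under 0.05), beside 3.97% of all genes. Npc1, a cholesterol exporter of the lysosome, Neu1 and Tfe3 did not overlap, with WM repopulating cells above, beside 12.1% of all genes (5.76% above). The Arsb level was now 22.6, 16.9, 20.4 and 20.7 FPKM against 22.4, 21.7, 20.1 and 23, so the groups overlapped (-0.12 ± 0.12, adjusted p = 0.67). Asah1, acid ceramidase, passed without WM repopulating 24 hr replicate 4 (+0.56, adjusted p = 0.020). Border-associated macrophage markers summed to 12.7 to 29.4 FPKM in WM repopulating cells and 45.7 to 52.9 in control microglia. All 5 tested were lower and Mrc1 was called. Neutrophil markers summed to 3126 to 7126 and 6306 to 15122 (7 of 8 lower, 1 higher, none called). Monocyte markers summed to 133 to 669 and 443 to 570 (6 of 6 lower, none called). Pecam1, Aldoc and Fcrls were also called lower. The part of these lists in the members' values was not tested.

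**Figure D3:**
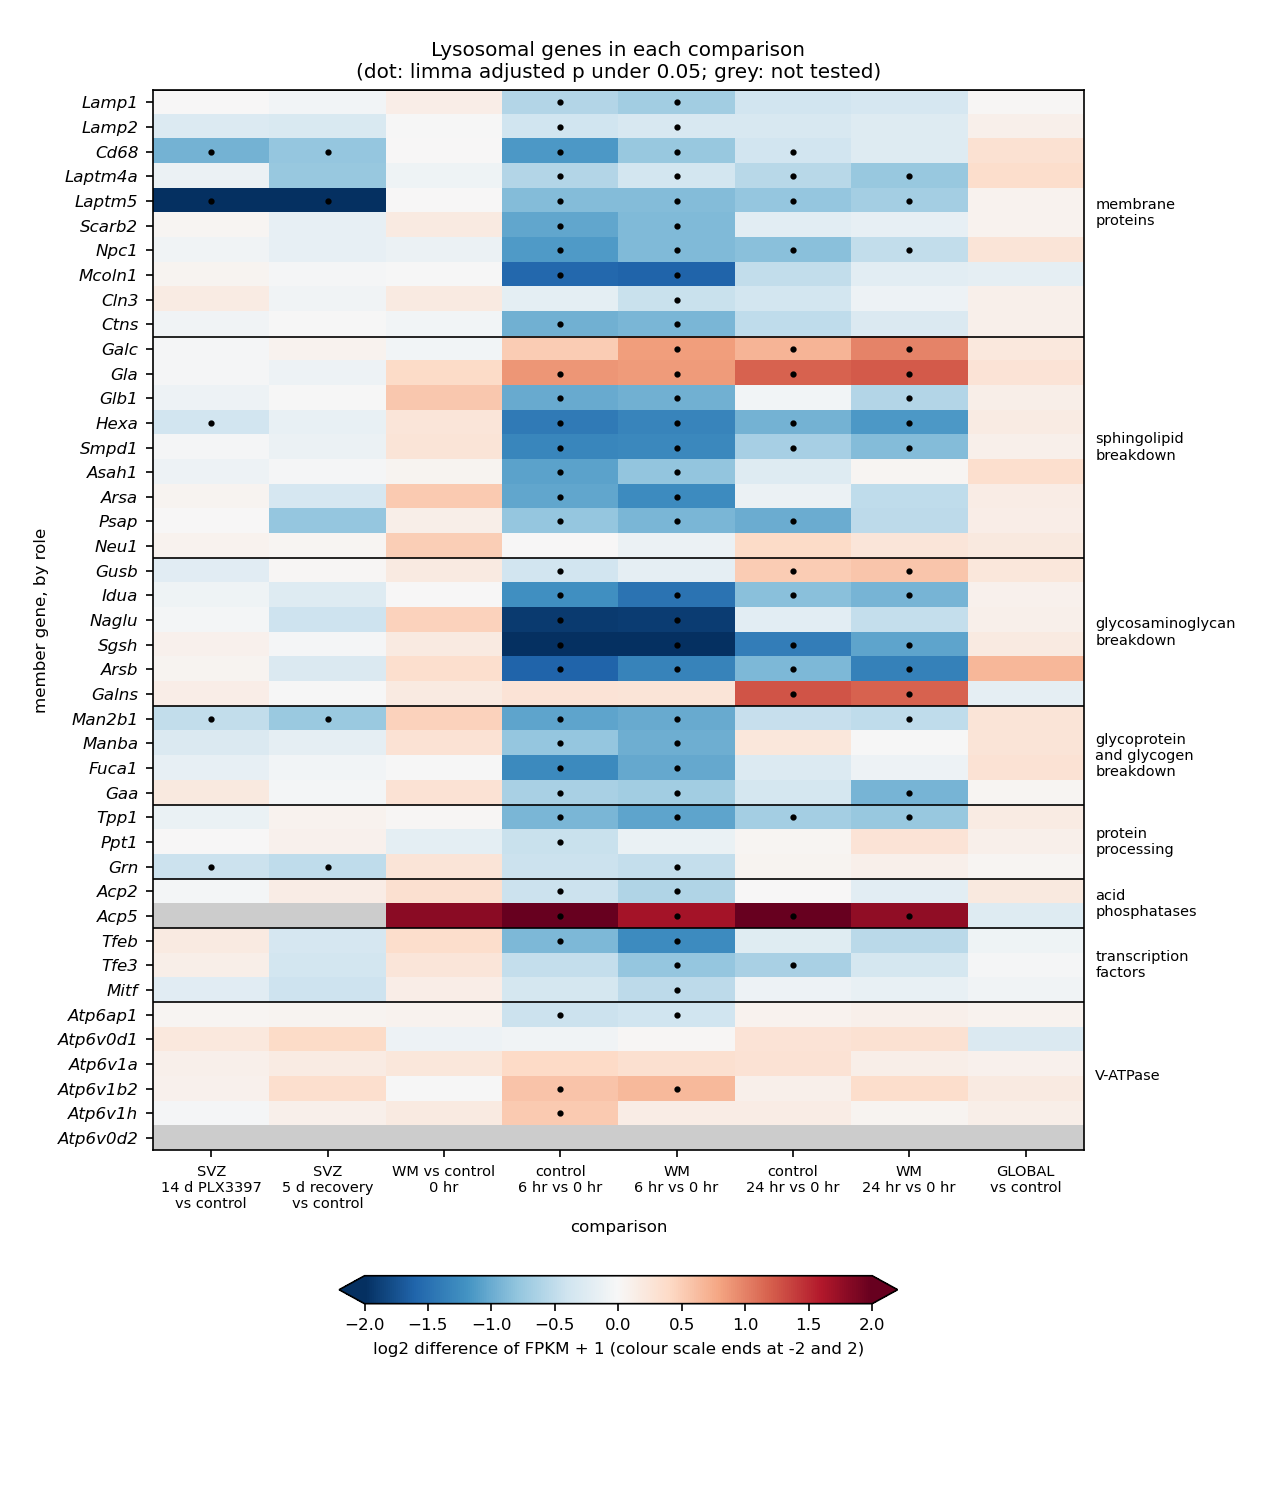
Log2 differences of every tested member (rows, grouped by role) in 8 comparisons (columns), with dots on called values (limma adjusted p under 0.05) and grey for members not tested. The columns for LPS at 6 hr hold 29 lower calls in control microglia and 31 in WM repopulating cells, while the column for GLOBAL repopulation holds none.

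LPS lowered most of the members within 6 hr. In control microglia, 29 of 42 fell, 4 rose and 9 did not pass, beside 21.1% of all genes lower and 21.4% higher (42.5% in all), and the members' median was -0.71 against 0.01 over all genes. Among the WM repopulating cells 31 fell, 4 rose and 7 did not pass, beside 19.5% of all genes lower and 19.3% higher (38.8% in all), with a median of -0.76. The groups did not overlap for 30 and 32 members (38.1% and 39.9% of all genes). The members' summed FPKM was 8203 to 9224 in control microglia at 0 hr and 4795 to 5426 at 6 hr, and 8758 to 10136 and 5119 to 6050 in WM repopulating cells.

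Of the enzymes of glycosaminoglycan breakdown, 5 of 6 fell in control microglia and 4 of 6 in WM repopulating cells, with median log2 differences of -1.42 and -1.41. Sgsh, which removes sulfate from heparan sulfate, was 11.1, 13.3 and 15.9 FPKM in control microglia at 0 hr and 1.22, 1.05, 1.03, 1.64 and 0.353 at 6 hr. The WM repopulating cells had 18.4, 10.9, 16.1 and 16.8 at 0 hr and 1.93, 1.32, 1.37 and 2.57 at 6 hr. Both series were fully separated, with 7.87% and 11.6% of the 0 hr level left (-2.83 ± 0.25, limma adjusted p = 5.8e-09, and -2.56 ± 0.25, adjusted p = 1.9e-08), on 8 to 51 reads in control microglia at 6 hr. The exons of Sgsh overlap those of Card14 on the opposite strand over 21.6% of their length, and whether the counting used the strand is not given in the sources used here, so its level is uncertain to that extent.

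Naglu, the enzyme that takes the glucosamine from the same chain, measured 63.4, 57.7 and 83.8 FPKM at 0 hr and 18.2, 9.80, 25.5, 17.4 and 18.1 at 6 hr in control microglia. The values were 97.9, 91.0, 96.0 and 88.5 at 0 hr and 20.2, 25.1, 27.1 and 24.9 at 6 hr in WM repopulating cells. The same share of the level was left in both, 26.1% (-1.92 ± 0.24 and -1.90 ± 0.23, limma adjusted p = 6.1e-07 and 5.5e-07). Arsb was 40.9, 44.4 and 39.0 FPKM before LPS in control microglia, against the 11.3 to 14.2 given above for 6 hr (-1.60 ± 0.12, adjusted p = 5.2e-10), and 51.2, 53.1, 50.4 and 55.8 in WM repopulating cells (-1.34 ± 0.12, adjusted p = 5e-09). Idua, the iduronidase, also fell in both (-1.23 ± 0.24 and -1.48 ± 0.23). Galns, which works on keratan sulfate, did not pass at 6 hr in either. Gusb fell in control microglia (-0.38 ± 0.15, adjusted p = 0.046) and did not pass in WM repopulating cells (-0.19 ± 0.15, adjusted p = 0.34), and the test of that difference did not pass (0.20 ± 0.21, adjusted p = 0.86).

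All or nearly all membrane proteins fell at 6 hr, 9 of 10 in control microglia and 10 of 10 in WM repopulating cells, with Cln3 the member that did not pass in the former. Mcoln1, the TRPML1 calcium channel, was 44.4, 43.0 and 31.9 FPKM at 0 hr and 13.9, 10.8, 13.5, 13.2 and 11.4 at 6 hr in control microglia, and 38.6, 37.8, 35.5 and 44.9 then 15.2, 10.9, 10.1 and 13.4 in WM repopulating cells. No 6 hr library reached a 0 hr library (-1.58 ± 0.22 and -1.60 ± 0.21, limma adjusted p = 2.9e-06 and 1.9e-06). Lamp1 fell by less, from 499, 534 and 549 FPKM to 325, 434, 328, 344 and 336 in control microglia (-0.58 ± 0.16, adjusted p = 0.0055). It went from 503, 575, 603 and 637 to 369, 375, 368 and 315 in WM repopulating cells (-0.70 ± 0.16, adjusted p = 0.0011). Cd68 fell from 1347, 1572 and 1463 FPKM in control microglia to the 6 hr values given above (44.9% of 0 hr) and from 1358, 1514, 1427 and 1607 in WM repopulating cells (59.2%).

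Laptm5 fell to 55.0% and 54.6% of the 0 hr level, from 2243 to 2568 FPKM in control microglia and 2247 to 2781 in WM repopulating cells. Lamp2 fell least of the membrane proteins that passed in both, to 75.3% and 79.9%. Npc1, Scarb2, which carries beta-glucocerebrosidase to the lysosome, and Ctns, the cystine transporter, fell in both, to 43.7% to 54.1% of 0 hr. Laptm4a fell in both as well, to 66.2% and 77.7%.

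Of the 9 genes of sphingolipid breakdown, 6 fell in each cell origin. Hexa was 522, 633 and 602 FPKM in control microglia at 0 hr and 238, 220, 246, 207 and 189 at 6 hr (-1.41 ± 0.16, limma adjusted p = 1.4e-07). For WM repopulating cells it was 651, 661, 709 and 751, then 265, 297, 314 and 234 (-1.32 ± 0.15, adjusted p = 2.8e-07). Smpd1, acid sphingomyelinase, was left at 39.6% and 39.1%, and Arsa, arylsulfatase A, at 41.9% and 37.3%. Asah1, Glb1 and Psap fell in both, to 47.4% to 58.9% of 0 hr. Neu1 stayed at 99.9% and 92.6% and did not pass.

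Gla, alpha-galactosidase A, went the other way. It was 6.18, 4.21 and 4.93 FPKM at 0 hr and 11, 9.76, 8.77, 9.52 and 12.4 at 6 hr in control microglia (+0.89 ± 0.22, limma adjusted p = 0.0023). The levels in WM repopulating cells were 8.09, 11.2, 5.51 and 4.49, then 14.4, 14.6, 11.2 and 13.2 (+0.85 ± 0.21, adjusted p = 0.0030). The control series did not overlap, and in WM repopulating cells the highest 0 hr library met the lowest 6 hr library. Galc, the galactosylceramidase, rose in WM repopulating cells from 3.29, 2.56, 1.87 and 2.15 FPKM to 4.36, 4.25, 7.23 and 5.09 (+0.84 ± 0.20, adjusted p = 0.0021). The same gene was at 2.21, 2.71 and 2.86 and then 4.52, 2.49, 5.32, 3.69 and 5 in control microglia and did not pass there (+0.51 ± 0.21, adjusted p = 0.055).

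All 4 genes of glycoprotein and glycogen breakdown, Man2b1, Manba (beta-mannosidase), Fuca1 (alpha-fucosidase) and Gaa, fell in both, to between 41.1% and 62.6% of 0 hr in control microglia and between 47.1% and 61.3% in WM repopulating cells. Tpp1, a tripeptidyl peptidase, fell to 53.2% and 48.0%. Grn was near the threshold in both, at 75.0% (-0.42 ± 0.17, limma adjusted p = 0.051) and 72.3% (-0.47 ± 0.17, adjusted p = 0.028). Ppt1, a thioesterase that takes fatty acids off proteins, passed in control microglia (73.1%) and not in WM repopulating cells (91.6%). Acp2, an acid phosphatase, fell in both, to 73.5% and 65.8%.

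Acp5 rose most of all members. In control microglia it went from 2.58, 0 and 0.386 FPKM to 22.4, 23.1, 19.6, 33.7 and 28.7 at 6 hr and 39.5, 22.1, 24.5 and 32.0 at 24 hr. All LPS libraries lay far above the 0 hr libraries (+3.93 ± 0.47, limma adjusted p = 4.2e-07, and +4.13 ± 0.49, adjusted p = 2.5e-06). In WM repopulating cells it went from 3.61, 17.2, 3.58 and 2.30 to 26.8, 15.9, 13.5 and 17.7 at 6 hr and 14.8, 15.8, 53.5 and 11.2 at 24 hr. There the groups overlapped through 0 hr replicate 2 (+1.66 ± 0.46, adjusted p = 0.0056, and +1.78 ± 0.46, adjusted p = 0.0076).

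Of the 5 V-ATPase subunits tested, 2 rose and 1 fell in control microglia at 6 hr, and 1 rose and 1 fell in WM repopulating cells. Atp6v1b2, of the catalytic sector, was 60.1, 50.6 and 47.0 FPKM at 0 hr and 78.9, 65.3, 74.1, 84.1 and 88.8 at 6 hr in control microglia (+0.56 ± 0.16, limma adjusted p = 0.0051). The WM repopulating libraries held 44.4, 64.3, 53.3 and 47.7, then 104, 89.5, 71.9 and 65.9 (+0.64 ± 0.15, adjusted p = 0.0015). The 6 hr libraries were above the 0 hr libraries in both. Atp6v1h, a regulatory subunit, rose in control microglia (+0.52 ± 0.17, adjusted p = 0.016) and did not pass in WM repopulating cells (+0.15 ± 0.16, adjusted p = 0.50). Atp6ap1, an accessory subunit, fell in both, to 74.2% and 75.6%, while Atp6v1a and Atp6v0d1 did not pass in either.

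Of the transcription factors, Tfeb was 10.4, 12.1 and 11.1 FPKM in control microglia at 0 hr and 8.54, 2.49, 10.2, 4.14 and 5.2 at 6 hr (-0.89 ± 0.29, limma adjusted p = 0.017), a wide spread whose highest library came close to the 0 hr group. Among WM repopulating cells it fell from 16.2, 11.6, 14.5 and 16.4 to 6.94, 5.46, 4 and 5.98 (-1.26 ± 0.29, adjusted p = 0.0011). Tfe3 fell in WM repopulating cells from 62.8, 58.5, 59.2 and 64.3 FPKM to 31.8, 37.1, 33.6 and 39.8 (-0.77 ± 0.19, adjusted p = 0.0022), and in control microglia its 6 hr libraries, 31.1 to 45.7, met the lowest 0 hr library (-0.48 ± 0.19, adjusted p = 0.051). Mitf fell in WM repopulating cells (-0.52 ± 0.18, adjusted p = 0.023) and was not called in control microglia (-0.35 ± 0.18, adjusted p = 0.13).

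Some of the 6 hr calls depended on single libraries. Of 8 fits with 1 library left out, the calls in control microglia were kept in 3 for Gusb (limma adjusted p up to 0.13), in 4 for Acp2 (up to 0.15), in 6 for Ppt1 and Atp6v1h, and in 7 for Atp6ap1, Lamp2, Tfeb and Arsa. Those in WM repopulating cells were kept in 3 for Lamp2 (up to 0.14) and Grn (up to 0.064), in 4 for Mitf (up to 0.10), in 5 for Laptm4a and in 6 for Cln3. The other 25 and 30 calls were kept in all 8. Among the 5 other alternatives, the control microglia call of Gusb was kept in 2, and those of Acp2, Tfeb and Arsa in 4. In WM repopulating cells that of Lamp2 was kept in 3 and that of Mitf in 4.

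**Figure D4:**
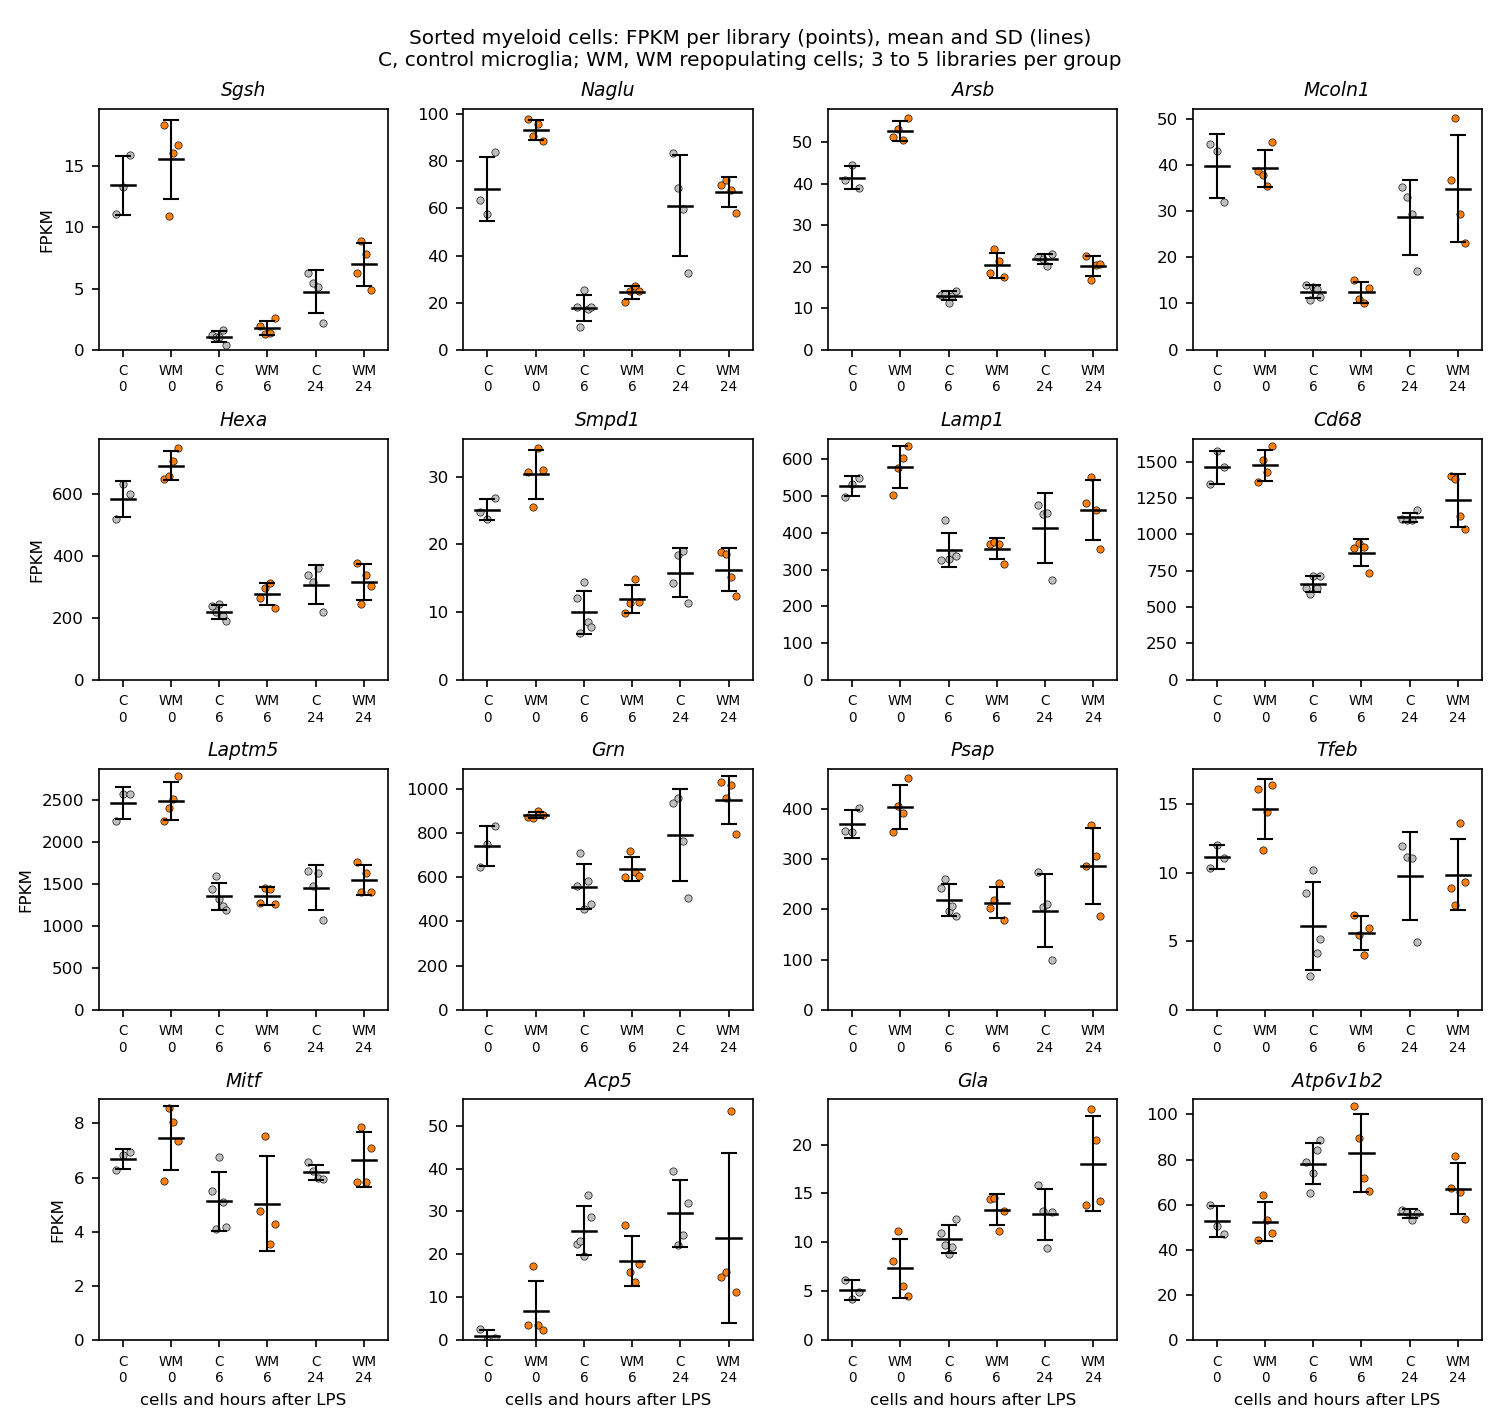
FPKM of 16 members in each sorted library (points), with lines for the mean and SD, at 0, 6 and 24 hr after LPS in control microglia (n = 3, 5 and 4) and WM repopulating cells (n = 4 each). Sgsh and Naglu drop at 6 hr in every library, and at 24 hr every Sgsh library is below the 0 hr libraries of its cell origin, while Naglu stands at 89.7% of 0 hr in control microglia and 71.8% in WM repopulating cells.

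Members with and without TCACGTG in the promoter had similar counts at 6 hr, a description with no test. Of the 11 with it, 7 fell and 1 rose in control microglia (median -0.65), and of the 26 others with a promoter 20 fell and 1 rose (median -0.77). In WM repopulating cells 8 fell and 1 rose (median -0.70), against 21 and 2 (median -0.82). Lamp1 with 4 copies and Sgsh with 1, whose windows are printed above, fell to 67.0% and 7.87% in control microglia.

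At 24 hr the picture had narrowed. In control microglia 12 members were lower than at 0 hr, 5 higher and 25 not called, beside 9.23% of all genes lower and 12.1% higher (21.3% in all), and in WM repopulating cells the counts were also 12, 5 and 25, beside 8.29% and 10.5% (18.8% in all). The medians were -0.25 and -0.24. The groups did not overlap for 22 and 20 members (29.5% and 25.1% of all genes). Both times were set against the same 0 hr libraries of each cell origin, so the 6 and 24 hr values are given side by side and not compared by a test.

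Naglu was 83.6, 68.7, 59.9 and 32.8 FPKM in control microglia and 70.2, 72.3, 67.7 and 58.0 in WM repopulating cells, 89.7% and 71.8% of 0 hr, and was not called in either. The control series overlapped its 0 hr libraries, whereas in WM repopulating cells all 24 hr libraries lay below all 0 hr libraries. With only these groups in the fit Naglu passed there (-0.47, limma adjusted p = 0.0070). That fit also called Tfe3, Arsa and Tfeb lower (-0.34, -0.51 and -0.54, limma adjusted p = 0.024, 0.021 and 0.047). With all groups in the fit, Tfeb and Mitf were not called at 24 hr in either cell origin. Sgsh stayed lower, at 6.23, 5.42, 5.17 and 2.20 FPKM (35.4%, -1.38 ± 0.27, limma adjusted p = 6.1e-04) and 6.24, 8.90, 7.86 and 4.92 (44.9%, -1.06 ± 0.25, adjusted p = 0.0037). Arsb stayed at 52.7% and 38.3%, and Hexa at 52.6% and 45.7%. Mcoln1, at 72.0% and 88.8%, and Lamp1, at 78.3% and 79.8%, were no longer called in either. Laptm5, Laptm4a, Npc1, Tpp1, Smpd1 and Idua were called lower in both. With 1 library left out, the calls of Smpd1 and Idua in control microglia were kept in 2 and 4 of 7 fits (limma adjusted p up to 0.090 and 0.10), and that of Npc1 in WM repopulating cells in 5 of 8 (up to 0.068).

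The genes called higher at 24 hr were Acp5, Gla, Galns, Galc and Gusb in each cell origin. In control microglia the calls of Galc and Gusb were kept in 2 of 7 fits each with 1 library left out (adjusted p up to 0.10 and 0.069), and in WM repopulating cells those of all 5 were kept in 8 of 8. The Gusb call in control microglia was kept in 3 of the 5 other alternatives. Galns was 11.7, 8.82 and 5.90 FPKM at 0 hr and 23, 31.5, 22.3 and 13.9 at 24 hr in control microglia (258%, +1.26 ± 0.24, limma adjusted p = 6.2e-04). In WM repopulating cells it was 11.8, 6.12, 10.3 and 12, then 26.7, 28.1, 23.9 and 16.4 (236%, +1.17 ± 0.23, adjusted p = 6.4e-04). No 24 hr library fell within the 0 hr range. Gla reached 252% and 247%, Galc 185% and 241%. Gusb rose from 221, 230 and 220 FPKM to 370, 365, 313 and 249 in control microglia (+0.52 ± 0.16, adjusted p = 0.023) and from 250, 263, 243 and 256 to 425, 369, 364 and 332 in WM repopulating cells (+0.55 ± 0.15, adjusted p = 0.010).

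Other members passed at 24 hr in a single cell origin with all groups and libraries in the fit. Psap, Tfe3 and Cd68 were lower in control microglia (-0.99 ± 0.24, -0.65 ± 0.20 and -0.38 ± 0.13), and Gaa, Glb1 and Man2b1 in WM repopulating cells (-0.93 ± 0.17, -0.59 ± 0.17 and -0.51 ± 0.16). Man2b1 also passed in control microglia with quantile normalization (-0.56, limma adjusted p = 0.018). The same held without control microglia 24 hr replicate 1 or 3 (adjusted p = 0.020 and 0.043). Tfe3 passed in WM repopulating cells with only the groups compared in the fit, as given above. Control microglia 24 hr replicate 4 was the lowest library of its group for Psap (99.1 FPKM against 205 to 274) and Tfe3 (17.2 against 36.9 to 43.4). With 1 library left out, the Cd68 call was kept in 2 of 7 fits (limma adjusted p up to 0.14), that of Tfe3 in 4 of 7 and that of Man2b1 in 5 of 8. Among the 5 other alternatives, the control microglia call of Cd68 was kept in 1 and that of Tfe3 in 3. Without replicate 4, Tfe3, Idua, Smpd1 and Galc lost the call in control microglia and Neu1 gained it (+0.55, limma adjusted p = 0.013). Without control microglia 0 hr replicate 3, the number of calls at 24 hr went from 17 to 11.

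The test of the difference between the LPS responses of the cell origins called none of the 42 members at 6 hr (limma, 2 at an unadjusted p under 0.05) or at 24 hr (4 at an unadjusted p under 0.05), beside 0.0237% and 0.0867% of all genes. The largest difference was that of Acp5, whose rise was smaller in WM repopulating cells by 2.27 ± 0.66 on the log2 scale at 6 hr (adjusted p = 0.47) and by 2.35 ± 0.67 at 24 hr (adjusted p = 0.21). For Arsb the difference was +0.26 ± 0.17 at 6 hr and -0.45 ± 0.17 at 24 hr (adjusted p = 0.77 and 0.41). Between the cell origins, which share no library, 40 of 42 members (95.2%) moved in the same direction at 6 hr and 39 of 42 (92.9%) at 24 hr, beside 81.9% and 74.4% of all genes. The correlation of the log2 differences over members was 0.931 and 0.869, and 0.897 and 0.746 over all genes, each as a description.

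**Figure D5:**
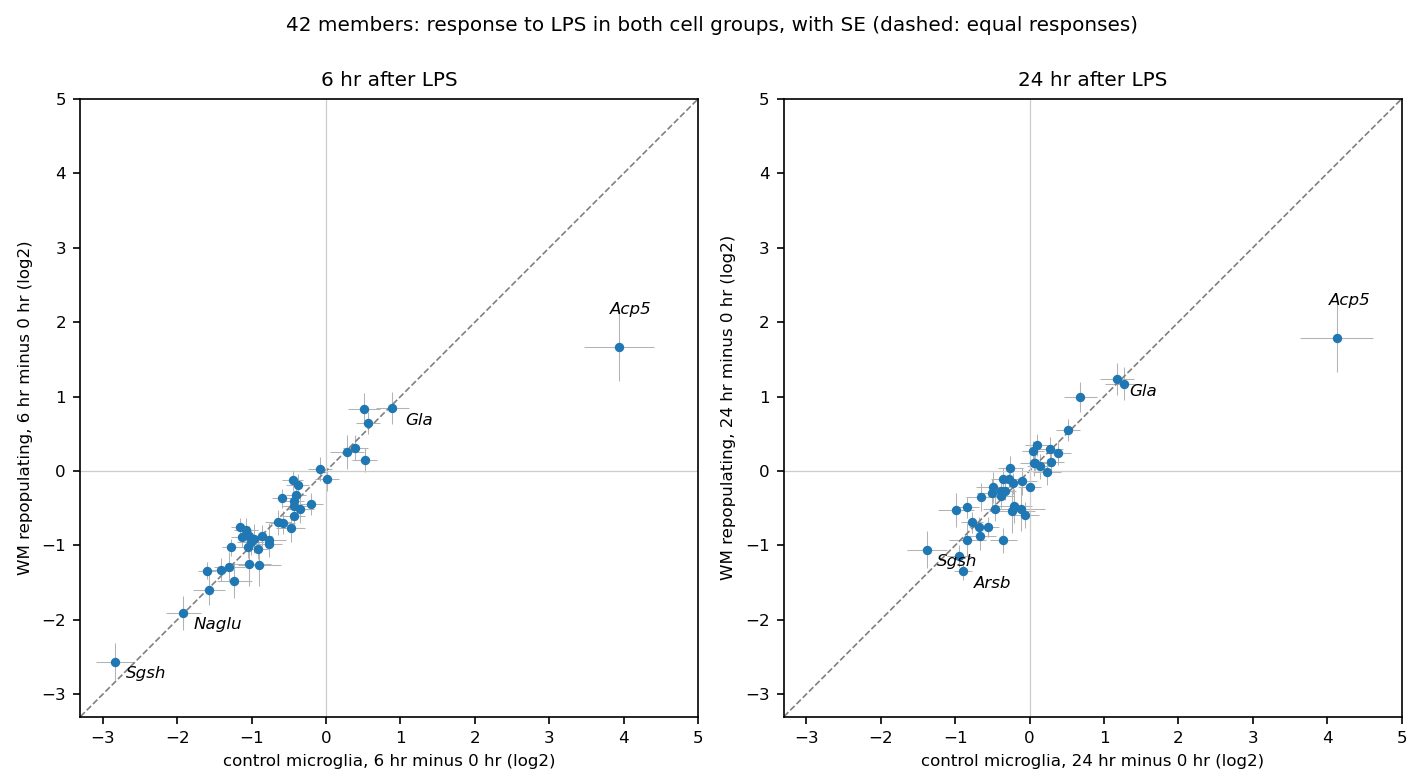
Log2 difference from 0 hr of each member in control microglia (horizontal axis) and WM repopulating cells (vertical axis), at 6 and 24 hr after LPS. Most points lie near the line of equal change and below 0 at 6 hr, and Acp5, at +3.93 and +1.66 at 6 hr, is the farthest from it.

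Other marker genes moved at the same times. The microglia list, 8 genes, summed to 19089 to 22265 FPKM in control microglia at 0 hr, 6735 to 8888 at 6 hr and 9604 to 12996 at 24 hr, and to 18156 to 21498, 7309 to 8762 and 9597 to 12811 in WM repopulating cells, with 7 of 8 lower at 6 hr and 8 of 8 at 24 hr in both. The monocyte list, 6 genes, summed to 113 to 348 FPKM at 0 hr and 1185 to 2337 at 6 hr in control microglia, and to 136 to 419 and 1189 to 3260 in WM repopulating cells, with 5 of 6 higher at 6 hr in both. Its defining genes were above 0 in at least 1 library of each group. Border-associated macrophage markers summed to 39.0 to 136 FPKM at 0 hr and 13.3 to 26.3 at 6 hr in control microglia, with 4 of 5 tested called lower, and to 22.1 to 46.7 and 10.3 to 13.9 in WM repopulating cells, with 2 of 5. Neutrophil markers summed to 2821 to 10780 FPKM at 0 hr and 429 to 10107 at 6 hr in WM repopulating cells, with 5 of 8 called lower, and 1 of 8 was called lower at 6 hr in control microglia. At 24 hr, choroid plexus markers had gone from 280 to 716 FPKM to 10.5 to 31.9 in WM repopulating cells, with 4 of 4 called lower, and from 73.6 to 218 to 35.1 to 52.5 in control microglia, with 0 of 4 called and 1 at an unadjusted p under 0.05 (limma). Monocyte markers summed to 443 to 570 FPKM at 24 hr in control microglia, with 1 of 6, Plac8, called higher. In WM repopulating cells they summed to 133 to 669 at 24 hr. Mrc1, Slc1a3 and Mag, markers of border-associated macrophages, astrocytes and oligodendrocytes, were called lower at 24 hr in control microglia. The part of a changed mixture of cells in the members' values was not tested.

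The other lysosomal lists were read in the same fits, where the shares of all genes given above were 21.1% lower and 21.4% higher in control microglia and 19.5% and 19.3% in WM repopulating cells. At 6 hr in control microglia, 11 of 19 further hydrolases and cofactors fell and 1 rose, led by Pla2g15, a lysosomal phospholipase, and Lipa, which splits cholesteryl esters, and 11 fell and none rose in WM repopulating cells. Of 12 other V-ATPase subunits 4 fell and 1 rose, and 3 and 0. Of 8 tested genes of enzyme sorting by mannose 6-phosphate 3 fell and 1 rose, and 2 and 1. Of 15 genes of nutrient sensing at the lysosome 6 fell, with Flcn leading, and in WM repopulating cells 4 fell and 1 rose. Of 17 autophagy genes 6 and 7 fell and none rose, Map1lc3a furthest. The medians of these 5 lists lay between -0.49 and 0.12 in control microglia and between -0.56 and -0.09 in WM repopulating cells, and those of the members at -0.71 and -0.76, the nearest list in both being the further hydrolases and cofactors.

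GLOBAL repopulation left no member changed beyond the test. None of 42 passed (limma, 3 at an unadjusted p under 0.05), beside 0% of all 16651 genes, and 35 of 42 were higher than control, with a median of +0.11. In 8 members the groups did not overlap, beside 9.96% of all genes (5.83% above and 4.14% below): Psap, Galc, Gusb, Man2b1, Asah1, Laptm4a and Arsb above control and Atp6v0d1 below. Arsb had the largest difference, at 165, 171 and 165 FPKM after GLOBAL repopulation and 87.7, 92.2, 105 and 142 in control (157%, +0.67 ± 0.17, adjusted p = 0.29). With the replicate number as a block it passed (+0.81, adjusted p = 0.042), in a fit that called 55 of 16651 genes, 15 higher and 40 lower. Tfeb, at 20.4, 22.1 and 24.9 against 26.3, 20.2, 14.6 and 40.1, and Lamp1, at 327, 365 and 366 against 351, 344, 334 and 356, overlapped. Atp6v0d2, a macrophage and osteoclast form of the subunit Atp6v0d1, was at 0.295 to 1.12 FPKM after GLOBAL repopulation and 0.362 to 1.18 in control, on 4 to 20 reads, under the level tested.

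Arsb, Man2b1 and Gusb, 3 of 42 members (7.14%), were above their own control without overlap both in WM repopulating cells before LPS and in GLOBAL repopulation, beside 1.48% of the 12090 genes tested in both tables, and none of the 3 passed either test. The GLOBAL control replicates 1 and 2 had neutrophil marker sums of 22653 and 13767 FPKM, where the highest GLOBAL repopulation library had 4571. Border-associated macrophage markers summed to 15.1 to 19.3 FPKM after GLOBAL repopulation and 26.9 to 38.9 in control, and endothelial markers to 12.6 to 26.4 and 20.2 to 71.7, with 5 of 5 lower in each list, none called, and 3 and 2 at an unadjusted p under 0.05 (limma). Lymphocyte markers summed to 9.21 to 14.2 and 14.3 to 30.3 FPKM, and astrocyte markers to 24.8 to 29.2 and 31.1 to 32.8. The part of these lists in the members' values was not tested.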

How the data were processed

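RNA was sequenced from 46 mouse libraries: SVZ tissue (15), cells sorted after LPS (24) and cells sorted after GLOBAL repopulation (7). The authors aligned reads to mm10 with STAR, counted them with featureCounts and deposited normalised FPKM values in a table per experiment (edgeR and limma, per the labels' processing notes); the study's text names the unit RPKM. The annotation and the strand of counting are not given in the sources used here, and the labels and the study's methods name different library protocols. The deposited FPKM values of low genes are whole multiples of the value of 1 read. This gave the depth, summed over genes whole within 0.02 of a read (99.9% of genes). No reads were tested. Groups came from sample titles. Every column of per-sample values was used.

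Groups were compared within a table by linear models on log2(FPKM + 1), a pseudocount of 1 (limma 3.58.1, run under R 4.3.3), with all groups of the table in a fit, eBayes with trend, and 2-sided tests adjusted by Benjamini-Hochberg over all genes at 1 FPKM or more in 3 or more samples. Genes with an adjusted p under 0.05 are called, and intervals are 95%. Differences between LPS responses were interaction terms. Replicate numbers were not treated as pairs: same-numbered libraries of different groups had deviations correlating at a median of 0.05 in the SVZ table (-0.15 to 0.49 over pairs), -0.001 in the LPS table (-0.19 to 0.27) and 0.10 in the GLOBAL table (0.06 to 0.14). Any member could be named, with values for up to 8 called members per direction with the largest differences and for the principal membrane proteins, regulators and phosphatases. Members, listed by symbol, and the other lists were chosen with earlier results of these data known. Alternatives were a pseudocount of 0.1, no filter, quantile normalization, the replicate block, only the groups compared, and leaving out each library. The fits were tested on simulated data. Promoters came from RefSeq (GRCm38.p6) with 37 of 43 members matched, and exon overlaps from GENCODE vM21, where 11 of 43 members overlap another coding gene. Python 3.11.15 was used for the depths, with numpy 2.4.6 and pandas 2.3.3, and matplotlib 3.10.9 for the plots.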

Additional observations from a re-analysis of the deposited data

Results flagged for a closer look

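Members were checked in 376 groups of 4 or 5 libraries for a library whose gap to the nearest of the others was large for the range of the group, and 24 were found. Chance gives about 1 in 20 groups, here 18.8. SVZ control replicate 1, which carries the choroid plexus markers, was the highest of its group for 6 members: Lamp2 at 44.8 FPKM, Laptm4a at 48.3, Psap at 282, Fuca1 at 64.7, Tpp1 at 51.3 and Mitf at 6.67. Control microglia 24 hr replicate 4 was the lowest for Lamp1 at 272 FPKM, Glb1 at 20.5, Neu1 at 20.8 and Tfeb at 4.98, and the highest for Cd68 at 1166. WM repopulating 24 hr replicate 2 was the highest for Cln3 at 51.6 FPKM, Ctns at 36.1 and Galc at 8.30. Acp5 was high in WM repopulating 0 hr replicate 2 at 17.2 FPKM (2.30 to 3.61 in the others) and in WM repopulating 24 hr replicate 3 at 53.5 (11.2 to 15.8 in the others). WM repopulating 6 hr replicate 4 was the lowest for Lamp1 at 315 FPKM and Cd68 at 735. Single members stood apart in SVZ control replicate 5 (Mcoln1 at 57.6 FPKM), SVZ recovery replicate 1 (Man2b1 at 10.7), control microglia 6 hr replicate 2 (Lamp1 at 434), control microglia 24 hr replicate 2 (Laptm4a at 77.1), GLOBAL control replicate 1 (Ctns at 20.6) and GLOBAL control replicate 3 (Gusb at 164).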

How the results depend on the processing

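No called member changed direction under any alternative. In SVZ tissue at 14 days, 5 members were called, 3 with the replicate block, which was not read as a pairing since not every same-numbered pair deviated together (correlations of -0.15 to 0.49), and 2 to 3 with 1 library left out. At recovery the 4 calls became 3 to 5 with 1 library left out, and recovery against 14 days went from 1 to 1 to 2, the second being Tfeb. Before LPS, the count of 0 between the cell origins became 1 with a pseudocount of 0.1 (Acp5), 1 with only those groups in the fit (Man2b1, adjusted p = 0.039) and 0 to 1 with 1 library left out. The single call at 6 hr became 0 with only those groups in the fit and 0 to 1 with 1 library left out, and the count of 0 at 24 hr became 0 to 1. After LPS, with 1 library left out, the calls in control microglia ranged from 27 to 35 at 6 hr (33 with all libraries) and from 11 to 17 at 24 hr (17 with all), and in WM repopulating cells from 31 to 35 and from 16 to 17. Under the other alternatives they ranged from 31 to 35 and from 13 to 18 in control microglia, and from 34 to 35 and from 17 to 21 in WM repopulating cells. Of those with all libraries, 25 of 33, 11 of 17, 30 of 35 and 15 of 17 were called in every fit with 1 library left out. The tests of a difference between LPS responses stayed at 0 throughout. In GLOBAL repopulation the replicate block called 1 member, Arsb (+0.81, adjusted p = 0.042), beside 55 of 16651 genes, against 0 without it, and leaving out a library called 0 members. Beyond GLOBAL repopulation and SVZ tissue at 14 days, the block changed no count of members called by more than 1.5 times; over all genes it took the calls for a difference between LPS responses from 3 to 0 at 6 hr and from 11 to 6 at 24 hr. The cause of these changes was not tested. Acp5 at 0 hr in control microglia and Laptm5 after PLX3397 rest on few reads, which limits the precision of their folds.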
